A study of Mus musculus with 16 samples.

Results

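The genes of the mitochondrial ribosome were followed in mouse naive CD4+ T cells. A gene was taken when a probe carried a single symbol that began with Mrpl or Mrps and a digit, and of several such probes the one with the highest mean was used. This gave 77 genes on 85 probes, out of 19938 genes with a single-symbol probe. All 77 passed the filter on dim probes and are among the 16427 genes tested. Mrpl53 shares its 1 probe with Ccdc142 and was not counted.

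The cells were of the B6 strain and came from spleen and lymph nodes, sorted as CD4+CD62LhiCD25- T cells. They were stimulated for 24 h with latex beads. WT_CD3 is wild type with anti-CD3 beads, WT_CD3CD28 is wild type with beads bearing both anti-CD3 and anti-CD28, and KO_CD3 and KO_CD3CD28 are the same stimuli in cells with the DEC1 knock-out. Anti-CD3 engages the T cell receptor complex, and anti-CD28 adds the costimulatory receptor CD28. DEC1, encoded by Bhlhe40, is a basic helix-loop-helix transcriptional repressor. Each group had 4 arrays, numbered as replicates 1 to 4, and no unstimulated cells were analysed here. Neither the deleted segment of Bhlhe40 nor a separate animal per replicate is given in the sources used here, so the p-values cover only the variation among the 4 arrays of a group, part of which may be technical.

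Mitochondria keep their own ribosome, which makes a small set of membrane subunits of the respiratory chain and the ATP synthase from messages of the mitochondrial genome. Its RNAs come from that genome, while all of its proteins are encoded in the nucleus, made in the cytosol and imported. Some have counterparts in the bacterial ribosome and others were added during the evolution of mitochondria. Mitochondrial translation and respiration increase as naive T cells are activated and prepare to divide. RNA levels on an array do not show how much of each protein was made.

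Promoter sequence was looked up in RefSeq (assembly GRCm38.p6) for the genes and was found for 68 of the 77. The window ran from 250 bases before to 50 bases after the annotated start, 300 bases in all. It was searched on both strands for 4 motifs of factors known from housekeeping and mitochondrial promoters: the ETS motif CCGGAAG, the NRF1 motif, the YY1 motif AAGATGGC, and CACGTG, the E-box read by MYC and by DEC1 itself. Matches of different motifs can share bases and were counted for each motif. A match is a description of the letters, not a bound site. CCGGAAG was present in 25 of the 68 members (36.8%), against 9.93% of all 27025 genes in the table and 16% of the 12917 tested genes found there. The NRF1 motif was present in 13 members (19.1%, against 5.19% and 9.16%), and AAGATGGC in 12 (17.6%, against 3.19% and 4.2%). CACGTG was present in 5 members (7.35%, against 8.09% and 10.5%): Mrpl2, Mrpl20, Mrpl36, Mrpl37 and Mrps18c.

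Below are the 250 bases before the start of 4 members, chosen after their values were seen. Mrpl36, one of the smallest proteins of the large subunit, has an E-box beside a YY1 motif, at chr13:73330759-73331008 on the plus strand. Mrpl45, which sits at the exit of the large subunit's peptide tunnel and had one of the largest CD28 differences, has NRF1 motifs, at chr11:97315466-97315715 on the plus strand. Mrps22, a mitochondria-specific small subunit protein, has an ETS motif, at chr9:98601680-98601929 on the minus strand. Mrpl58, a peptidyl-tRNA hydrolase that became part of the large subunit and passed the test in none of the comparisons, has an ETS motif too, at chr11:115403502-115403751 on the plus strand. Each is written 5′ to 3′ in the direction of its gene, and capitals mark the motif matches on either strand.
Mrpl36: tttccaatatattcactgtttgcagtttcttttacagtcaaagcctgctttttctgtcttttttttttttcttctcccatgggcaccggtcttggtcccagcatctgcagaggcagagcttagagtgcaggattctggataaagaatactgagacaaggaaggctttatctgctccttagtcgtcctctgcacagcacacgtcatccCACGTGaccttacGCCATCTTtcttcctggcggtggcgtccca
Mrpl45: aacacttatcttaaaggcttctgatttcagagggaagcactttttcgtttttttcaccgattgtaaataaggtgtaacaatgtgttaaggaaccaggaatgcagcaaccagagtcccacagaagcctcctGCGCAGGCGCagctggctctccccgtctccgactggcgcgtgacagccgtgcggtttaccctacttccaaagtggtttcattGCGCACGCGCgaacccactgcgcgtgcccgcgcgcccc
Mrps22: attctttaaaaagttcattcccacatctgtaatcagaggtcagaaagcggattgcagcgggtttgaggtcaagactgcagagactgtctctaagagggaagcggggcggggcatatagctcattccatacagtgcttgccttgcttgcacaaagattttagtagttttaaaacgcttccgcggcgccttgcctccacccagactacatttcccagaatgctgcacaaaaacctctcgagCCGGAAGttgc
Mrpl58: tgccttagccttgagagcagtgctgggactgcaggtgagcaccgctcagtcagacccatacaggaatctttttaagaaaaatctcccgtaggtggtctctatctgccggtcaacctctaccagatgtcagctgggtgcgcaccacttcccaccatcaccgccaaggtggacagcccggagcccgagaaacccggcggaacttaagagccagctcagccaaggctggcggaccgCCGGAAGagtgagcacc

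The arrays had medians of 6.64 to 6.97 and correlated within a group at 0.97 to 0.995 over all tested genes. The number of arrays limits the precision. The members' probes lay between the 39.2 and 97.7 percentiles of their arrays. Bhlhe40, the targeted gene, had mean signals of 7.56 (WT_CD3) and 9.51 (WT_CD3CD28) with SDs of 0.42 and 0.71 over 4 arrays, while the knockout means were 5.53 and 5.88 with SDs of 0.32 and 0.14. The labelled cell type was checked with 6 tested T cell markers. Cd3e was at 11.36 to 12.20 and Cd4 at 10.95 to 11.34 in the group means, and both lay at or above the 93.5 percentile of every array. Xist was high on 6 arrays (WT replicate 1 and KO replicates 2 and 4 under both stimuli, 10.4 to 11.4) and low on the others (5.09 to 5.80), so arrays of a group came from material of both sexes, and the genotypes differ in their make-up by sex.

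The mean log2 signal of the 77 genes moved with the stimulus in both genotypes. In WT_CD3 it was 9.34, 9.26, 9.38 and 9.17 on replicates 1 to 4, and in WT_CD3CD28 it was 9.82, 9.87, 9.72 and 9.40. In KO_CD3 it was 9.02, 8.85, 9.17 and 9.01, and in KO_CD3CD28 it was 9.88, 9.81, 9.60 and 9.62. Every array with anti-CD28 was above every array without it, and KO_CD3 held the lowest arrays of all, with its replicate 3 level with WT_CD3 replicate 4. Replicate 4 of WT_CD3CD28 stood apart: 70 of its 77 genes were below their group mean, and the mean deviation over all 77 was -0.31. In these bulk samples, fewer cells of a type and less RNA per cell cannot be told apart.

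**Figure D1:**
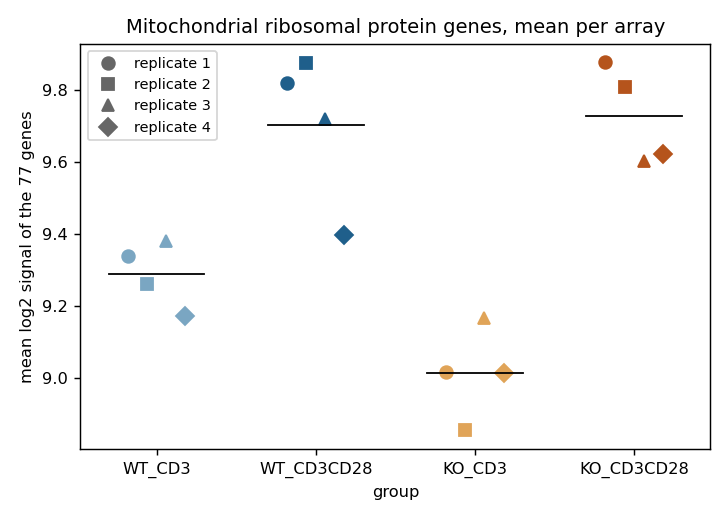
Mean log2 signal of the 77 mitochondrial ribosomal protein genes on each array (y axis), by group (x axis), with a marker shape per replicate number and a line at the group mean (n = 4). The WT_CD3CD28 and KO_CD3CD28 arrays sit between 9.40 and 9.88, above the WT_CD3 arrays at 9.17 to 9.38 and the KO_CD3 arrays at 8.85 to 9.17.

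In wild-type cells, adding anti-CD28 to the beads raised many of these genes. In limma, with Benjamini-Hochberg adjustment over all tested genes, 39 of the 77 genes rose, 1 fell and 37 did not pass the adjusted p of 0.05. Of all tested genes 29% passed: 16% of all tested genes were higher and 13% were lower. The members' median log2 difference was 0.37 (1.29-fold), against -0.03 over all genes, and 74 of 77 were above 0, against 44.6% of all genes. The arrays of the groups did not overlap in 34 members that were higher and 1 that was lower (16.2% and 14.3% of all genes). Without WT_CD3CD28 replicate 4, 56 members passed and the median was 0.49. The share of all genes that passed without that array is not given here.

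Mrpl47, a large subunit protein near the tunnel exit, was at 8.05, 7.87, 8.03 and 7.87 in WT_CD3 and at 9.05, 9.26, 8.89 and 9.04 in WT_CD3CD28. The groups lay far apart, and the array that stood low for most members did not do so here. Mrpl47 rose by 1.11 on the log2 scale (SE 0.14, 2.15-fold, adjusted p = 1.38e-05 in limma), but its other probe rose by 0.31 only.

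Mrpl45, whose promoter with NRF1 motifs is shown above, was at 8.37, 8.20, 8.47 and 8.05 in WT_CD3 and at 9.51, 9.68, 9.17 and 9.08 in WT_CD3CD28. All arrays with anti-CD28 were higher, and replicates 1 and 2 parted more than replicates 3 and 4. It rose by 1.09 (SE 0.17, adjusted p = 0.000105 in limma). Mrpl19, a large subunit protein with a bacterial counterpart, rose by 0.86 (SE 0.13), and Mrpl35, another, by 0.73 (SE 0.12). Mrpl3, which reaches toward the peptidyl transferase centre, rose by 0.67 (SE 0.10).

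Among the proteins of the small subunit, Mrps22 was at 9.82, 9.71, 9.98 and 9.55 in WT_CD3 and at 10.72, 10.63, 10.38 and 10.84 in WT_CD3CD28. The groups did not overlap, and replicate 4 was the highest with anti-CD28 and the lowest without. Mrps22 rose by 0.88 (SE 0.12, adjusted p = 3.77e-05 in limma). Mrps31, a protein found only in the mitochondrial small subunit, rose by 0.74 (SE 0.11, adjusted p = 4.77e-05) and Mrps15, which binds the small subunit RNA, by 0.56 (SE 0.09).

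Mrpl24, a large subunit protein at the tunnel exit, was the member that fell. It was at 10.87, 10.75, 10.91 and 10.90 in WT_CD3 and at 10.59, 10.71, 10.70 and 10.42 in WT_CD3CD28. The groups did not overlap, but the gap between the nearest arrays was small. The difference was -0.25 (SE 0.08, adjusted p = 0.0309 in limma). The call was lost without any 1 of 5 arrays (WT_CD3 replicate 1, 3 or 4, or WT_CD3CD28 replicate 1 or 4), with adjusted p up to 0.0971. It was also lost when arrays were centred on the median of all probes (-0.16, adjusted p = 0.236).

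**Figure D2:**
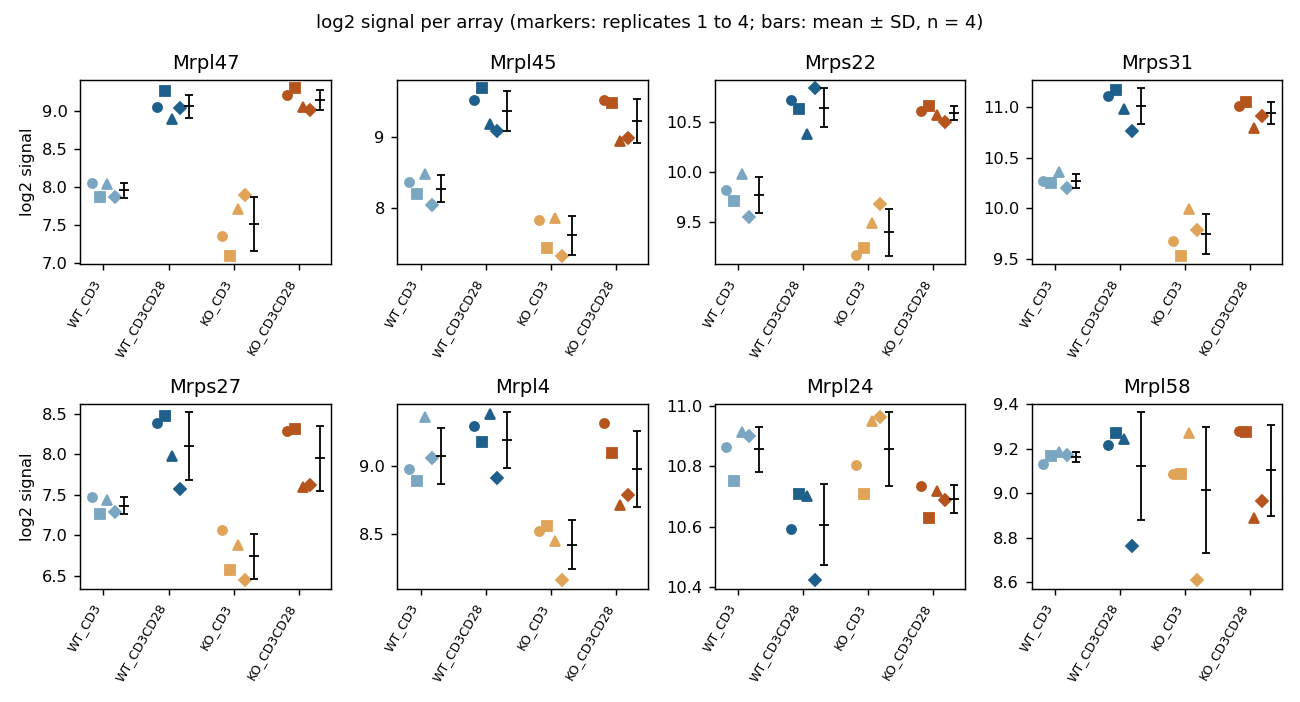
Log2 signal of 8 members on each array (y axes, each with its own range), by group (x axes), with a marker shape per replicate and bars for the mean ± SD (n = 4). Mrpl47 and Mrpl45 are more than 1 log2 unit higher with anti-CD28 in wild type, Mrpl24 is 0.25 lower there, and the Mrpl58 group means lie close together.

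The same comparison in knockout cells gave more calls. Here 69 of 77 genes rose, 0 fell and 8 did not pass, against 38% of all tested genes (20.4% higher and 17.6% lower). The median log2 difference was 0.66 (1.58-fold), against -0.06 over all genes, and 76 of 77 were above 0, against 41% of all genes. In 61 members every KO_CD3CD28 array was above every KO_CD3 array (18.7% of all genes). With replicates 3 and 4 alone 30 members passed and the median was 0.47. The share of all genes that passed in that subset is not given here.

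Mrpl47 was at 7.35, 7.09, 7.71 and 7.89 in KO_CD3 and at 9.21, 9.30, 9.05 and 9.02 in KO_CD3CD28. The arrays without anti-CD28 were spread over a wider range than those with it. It rose by 1.64 (SE 0.14, 3.11-fold, adjusted p = 1.02e-07 in limma), and its other probe by 0.26 only.

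Mrpl45 was at 7.83, 7.44, 7.86 and 7.32 in KO_CD3 and at 9.51, 9.47, 8.93 and 8.98 in KO_CD3CD28. It rose by 1.61 (SE 0.17, adjusted p = 1.08e-06 in limma), with the arrays of both groups far apart. Mrpl36, shown above with its E-box, was at 8.81, 8.46, 9.05 and 8.95 in KO_CD3 and at 10.13, 9.99, 9.93 and 9.87 in KO_CD3CD28. It rose by 1.16 (SE 0.12, adjusted p = 6.24e-07), after 0.65 in wild type. Mrpl3 rose by 0.96 (SE 0.10).

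Among the small subunit proteins, Mrps31 was at 9.68, 9.53, 9.99 and 9.79 in KO_CD3 and at 11.01, 11.05, 10.80 and 10.92 in KO_CD3CD28. The groups did not overlap and the arrays with anti-CD28 were close to one another. Mrps31 rose by 1.20 (SE 0.11, adjusted p = 1.53e-07 in limma). Mrps22 rose by 1.19 (SE 0.12), Mrps17, a small subunit protein with a bacterial counterpart, by 0.89 (SE 0.09), and Mrps15 by 0.81 (SE 0.09).

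A panel of members with known roles was read in both genotypes. Of the proteins of the flexible stalk that recruits translation factors, Mrpl12 had a difference of 0.41 in wild type (adjusted p = 0.0691 in limma) and rose by 0.60 in knockout (0.00712). Mrpl11, at the stalk's base, had 0.41 (0.159) and rose by 0.90 (0.00241). Both passed in wild type without WT_CD3CD28 replicate 4 (0.60 and 0.64), and also with the replicate number as a block (adjusted p = 0.0158 and 0.0229). Mrpl10, which anchors the stalk, rose by 0.27 (0.0481) and by 0.29 (0.0282), near the threshold on both sides. Its call was lost without any 1 of 6 arrays in wild type (all but WT_CD3 replicate 3 and WT_CD3CD28 replicate 4) and without any 1 of 4 in knockout (KO_CD3 replicate 2 or 4, KO_CD3CD28 replicate 1 or 4), with adjusted p up to 0.142 and 0.0938.

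Mrpl44, which carries a ribonuclease III-like domain, had 0.32 in wild type (adjusted p = 0.083 in limma, 0.0425 with the replicate block and 0.00833 without WT_CD3CD28 replicate 4) and rose by 0.65 in knockout (0.000914). Mrps30, a large subunit protein in spite of its name, rose by 0.58 and 0.72. In the small subunit, Mrps12, at the decoding centre, had 0.36 (0.176) and rose by 0.74 (0.00451). Mrps34 had 0.20 and rose by 0.55 (0.00621). Both passed in wild type without WT_CD3CD28 replicate 4 (adjusted p = 0.00444 and 0.0355). Mrps27, a pentatricopeptide repeat protein of the small subunit, rose by 0.74 (0.0102) and by 1.22 (0.000141).

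The mouse has 3 homologues of the bacterial protein S18, of which Mrps18a is placed in the large subunit and the others in the small one. They had 0.22, 0.32 and 0.29 in wild type (Mrps18a, Mrps18b, Mrps18c), none past the threshold, and rose by 0.68, 0.80 and 0.57 in knockout. Without WT_CD3CD28 replicate 4, Mrps18a passed in wild type (0.45, adjusted p = 0.0425 in limma) and Mrps18b had 0.56 (0.074). In knockout Mrps18b was lost without KO_CD3 replicate 4, KO_CD3CD28 replicate 1 or KO_CD3CD28 replicate 2 (adjusted p up to 0.0642) and Mrps18c without KO_CD3 replicate 2 (0.0542). Mrps36, whose product is now placed in the oxoglutarate dehydrogenase complex rather than the ribosome, had 0.36 and rose by 0.73.

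The subunits and the origin of the proteins gave similar counts. Of 50 large subunit genes 27 rose and 1 fell in wild type and 44 rose in knockout, with medians of 0.38 and 0.67. Of 26 small subunit genes 12 and 24 rose, with medians of 0.37 and 0.57. Among large subunit genes with a bacterial counterpart 16 of 30 rose in wild type and 25 in knockout, against 11 and 19 of the 20 without one. Among small subunit genes the counts were 7 and 15 of 16 with a counterpart, and 5 and 9 of 10 without. Of the 68 members with a promoter window, the 25 with an ETS motif had medians of 0.25 and 0.57, against 0.41 and 0.68 for the other 43. The 12 with a YY1 motif had 0.53 and 0.71, against 0.35 and 0.62 for the other 56. The 13 with an NRF1 motif had 0.29 and 0.47, against 0.38 and 0.72 for the other 55 and Mrpl45's 1.09 in wild type. The 5 with an E-box had 0.37 and 0.67, against 0.36 and 0.66 for the other 63. None of these splits was tested.

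**Figure D3:**
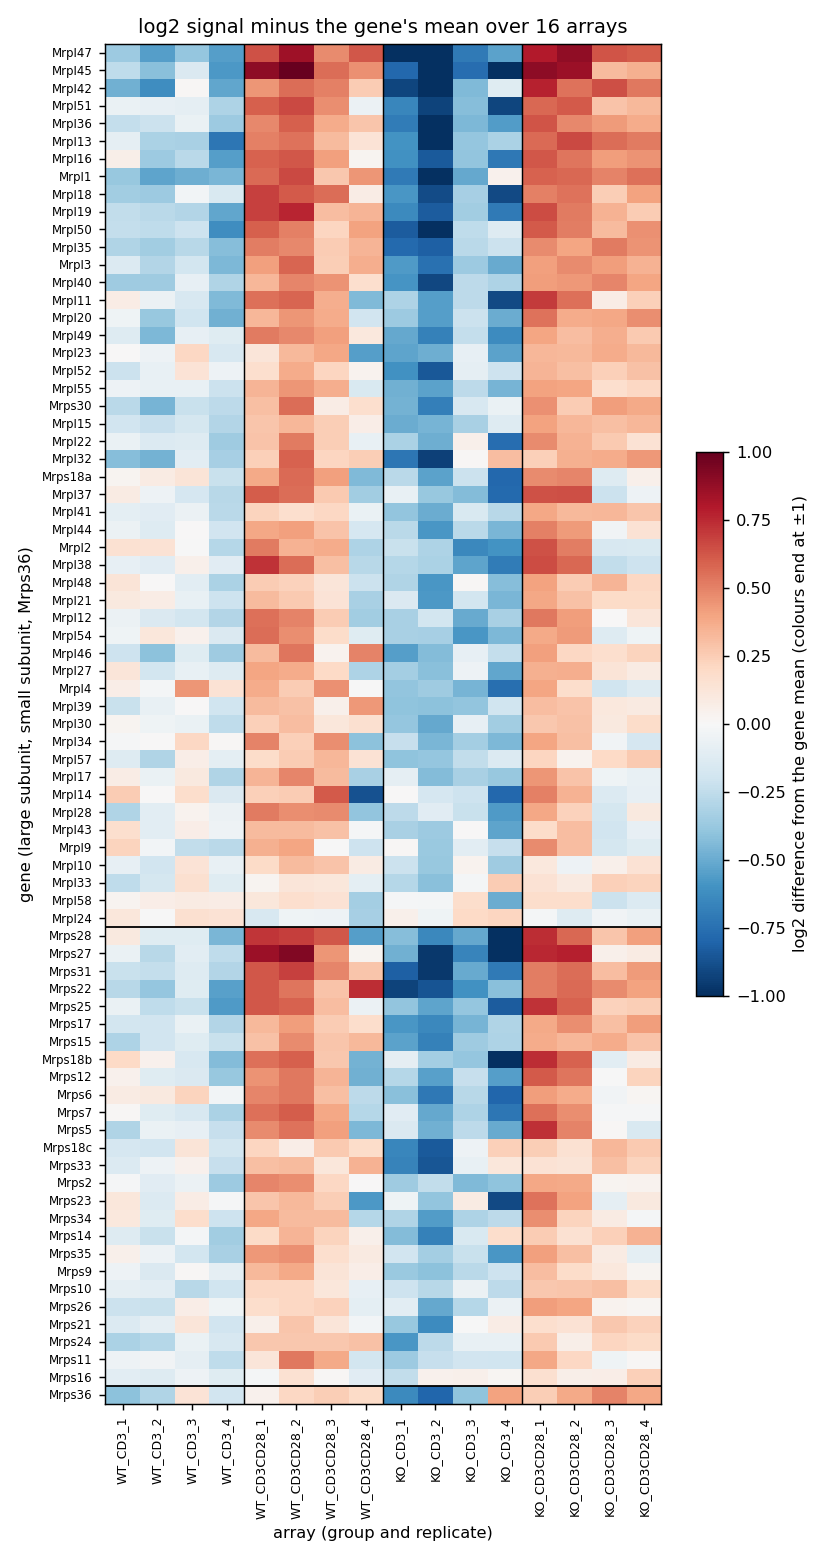
Log2 signal of each of the 77 genes (rows, by subunit) on each of the 16 arrays (columns, by group and replicate), as the difference from the gene's mean over all arrays (colour, ending at 1 log2 unit either way). Most rows are above their mean in the WT_CD3CD28 and KO_CD3CD28 columns and lowest in KO_CD3, and WT_CD3CD28 replicate 4 is paler than the other arrays of its group.

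Set side by side, 39 genes passed in both genotypes, 30 passed only in the knockout cells' comparison, and Mrpl24 passed only in wild type. The members that passed in neither were Mrpl9, Mrpl14, Mrpl28, Mrpl33, Mrpl58, Mrps16 and Mrps23. Mrpl58, with its ETS motif, was at 9.13, 9.17, 9.19 and 9.17 in WT_CD3 and at 9.22, 9.27, 9.24 and 8.76 in WT_CD3CD28. It was at 9.09, 9.08, 9.27 and 8.61 in KO_CD3 and at 9.28, 9.28, 8.89 and 8.97 in KO_CD3CD28. All 4 groups overlapped, with replicate 4 the lowest in WT_CD3CD28 and in KO_CD3. Its differences were -0.04 in wild type (95% interval -0.34 to 0.25) and 0.09 in knockout (-0.20 to 0.38). Mrps23 had 0.55 in knockout, just short of the threshold (adjusted p = 0.0504 in limma), and passed with the replicate block or without KO_CD3 replicate 1, KO_CD3 replicate 3 or KO_CD3CD28 replicate 3. Mrpl28 passed without WT_CD3CD28 replicate 4 in wild type (0.59) and without KO_CD3CD28 replicate 3 in knockout (0.53). Mrpl33 passed in knockout without KO_CD3 replicate 4 (0.41).

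**Figure D4:**
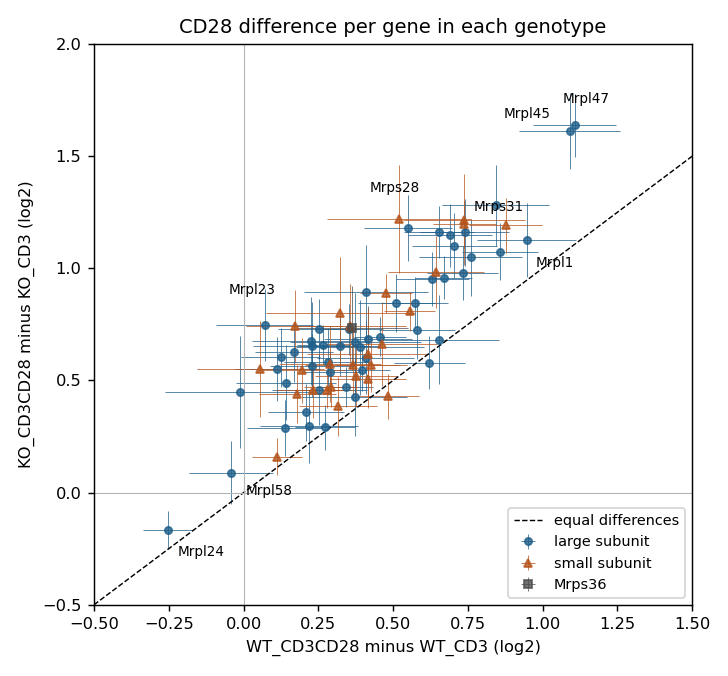
Log2 difference between both beads and anti-CD3 beads for each of the 77 genes in wild type (x axis) and in knockout (y axis), with standard errors as bars, a colour per subunit and a dashed line where both are equal. 75 of the 77 points lie above the line, and Mrpl47 and Mrpl45 are farthest to the upper right.

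The interaction asked whether the CD28 difference was larger in knockout than in wild-type cells. It was above 0 in 75 of 77 members, against 50.3% of all genes, with a median of 0.29, against 0.00 over all genes. In limma 0 of 77 members passed the adjusted threshold, and 0% of all tested genes did. At an unadjusted p under 0.05 the count was 16 members, all higher (3.22% of all genes), 15 with a trended variance and 23 with the replicate block, where 6.22% of all genes were higher. For the trended variance the share of all genes is not given here. Neither alternative gave a member past the adjusted threshold. The difference between the genotypes' counts above was thus not shown for any single gene. Without WT_CD3CD28 replicate 4 the median was 0.20, 70 members were above 0 and 11 had an unadjusted p under 0.05. By the smallest unadjusted p the first members were Mrps17 (0.41, SE 0.12), Mrpl41, of the large subunit (0.39, SE 0.13), and Mrpl36 (0.51, SE 0.16), each with an adjusted p of 0.905.

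The genotypes were then compared under each stimulus. The interaction above is also the genotype difference under both stimuli minus that under anti-CD3 alone, so these are not separate results. The mean of the 77 genes was 9.29 in WT_CD3 and 9.01 in KO_CD3. It was 9.70 in WT_CD3CD28 and 9.73 in KO_CD3CD28. With anti-CD3 alone, 76 of 77 members were lower in knockout cells and 1, Mrps16, was higher by 0.07. Of all genes 55.4% were above 0. The median difference was -0.26 (all genes 0.03), and -0.12 to -0.35 under the other scalings of the arrays. In limma 2 members were lower past the threshold, Mrps31 and Mrpl4, and 0 were higher, against 1.03% of all tested genes (0.749% lower and 0.28% higher). With the replicate number as a block, 16 members passed, all lower, against 11.9% of all genes (6.56% lower). At an unadjusted p under 0.05 it was 32 members (11.3% of all genes lower). In 15 members every knockout array was below every wild-type array (6.63% of all genes), and in 0 members above (8.06% of all genes).

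Mrps31 was at 10.27, 10.25, 10.36 and 10.20 in WT_CD3 and at 9.68, 9.53, 9.99 and 9.79 in KO_CD3. The groups did not overlap. The difference was -0.53 (SE 0.11, adjusted p = 0.0313 in limma, 0.0116 with the block). Mrpl4, which lines the peptide tunnel, was at 8.98, 8.89, 9.36 and 9.06 in WT_CD3 and at 8.52, 8.56, 8.45 and 8.16 in KO_CD3. No array of the knockout reached the wild-type range. The difference was -0.65 (SE 0.14, adjusted p = 0.0421, 0.0103 with the block).

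Both calls depend on the arrays used. Mrps31 was lost without WT_CD3 replicate 1, 2 or 3 or KO_CD3 replicate 1 or 2 (adjusted p up to 0.13 in limma). Mrpl4 was lost without any 1 array but KO_CD3 replicate 3 (up to 0.171). With the Xist level as a covariate they had adjusted p of 0.0573 and 0.0729. Without KO_CD3 replicate 3, 8 members passed, and without WT_CD3 replicate 1, 2 or 3 or KO_CD3 replicate 1 or 2, 0 did. Replicates 1 and 2 alone gave 30 members and replicates 3 and 4 alone gave 0. The shares of all genes that passed in these subsets are not given here, so these counts cannot be read as particular to the members.

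Pairing arrays of the same number, the mean of the 77 genes was lower in KO_CD3 in every pair, with differences of -0.32, -0.41, -0.21 and -0.16 for numbers 1 to 4. The number of members below 0 was 74, 75, 64 and 54. The labels give no such pairing, and the wild-type and knockout arrays numbered 1, 2 or 4 differed in their Xist level. Besides Mrps31 and Mrpl4, the members that passed with the block were Mrpl2, Mrpl18, Mrpl23, Mrpl36, Mrpl45, Mrpl49, Mrpl51, Mrpl54, Mrpl55, Mrps6, Mrps17, Mrps18a, Mrps27 and Mrps28. Mrpl45 had the largest difference, -0.66 (SE 0.17, adjusted p = 0.0665 in limma, 0.0115 with the block, 0.0439 without KO_CD3 replicate 3). Mrps27 had -0.63 (SE 0.20, 0.102 and 0.0203). The 5 members with an E-box had a median of -0.31, against -0.25 for the other 63 with a promoter window, a split that was not tested.

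With anti-CD3 plus anti-CD28 no difference between the genotypes was called. In limma 0 of 77 members passed (0.00609% of all genes did), with and without the replicate block. At an unadjusted p under 0.05 it was 1 member, Mrpl41 (0.20, SE 0.09), against 2.75% of all genes higher, and 2 members with the block (5% of all genes higher). The median difference was 0.03 (all genes 0.02) and 45 members were above 0 (55.6% of all genes). Without WT_CD3CD28 replicate 4 the median was -0.08. Every knockout array was above every wild-type array for Mrpl41 and Mrps36 (2.11% of all genes) and below for Mrps24 (0.645%). The 95% interval of the difference was -0.29 to 0.15 for Mrps31 and -0.51 to 0.09 for Mrpl4.

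**Figure D5:**
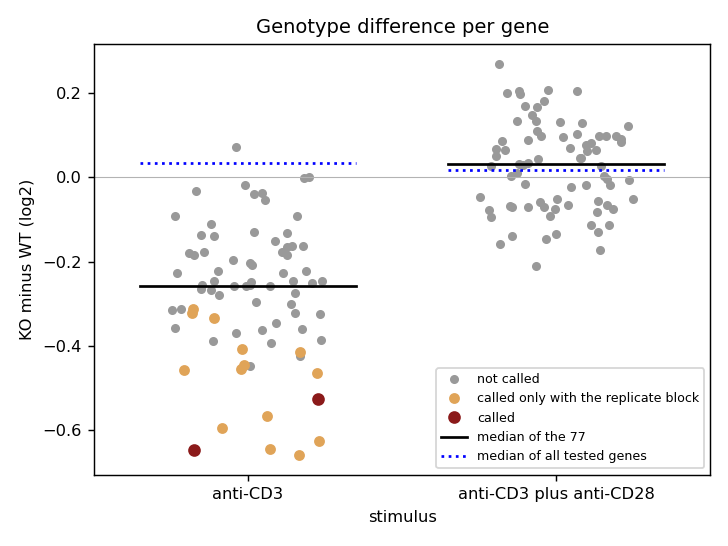
Log2 difference between knockout and wild type for each of the 77 genes (y axis) under each stimulus (x axis), with the median of the members (solid line) and of all tested genes (dotted line), and colours for members called with and without the replicate block. With anti-CD3 76 points lie below 0 around a median of -0.26, and with both beads they scatter around 0.03.

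Members with several probes mostly read alike. There were 8 of them, and Mrpl23, Mrpl27, Mrps5, Mrps33 and Mrps36 had close values on both. Mrpl47 disagreed most, with 1.64 and 0.26 for the CD28 difference in knockout and -0.45 and 0.03 between genotypes under anti-CD3. The other probe of Mrpl51, of the large subunit, had 1.03 in wild type against 0.55, -0.26 between genotypes under anti-CD3 against -0.59, and 0.14 for the interaction against 0.63. The other probe of Mrpl41 had 0.20 for the CD28 difference in wild type (adjusted p = 0.157 in limma) against 0.27 (0.0309). That probe had 0.25 against 0.39 for the interaction and 0.15 against 0.20 between genotypes under both stimuli. Under anti-CD3 it had -0.11 against -0.20 between genotypes.

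Other genes that serve the mitochondrial ribosome were read from lists. For scale, 16% of all tested genes were higher and 13% lower in wild type, and 20.4% and 17.6% in knockout. The 4 tested proteins of that ribosome named otherwise all rose in both genotypes: the GTP-binding small subunit protein Dap3 by 0.32 and 0.47 (SE 0.08), the pentatricopeptide protein Ptcd3 by 0.76 and 0.86 (SE 0.13), Gadd45gip1 by 0.45 and 0.57 (SE 0.10) and Chchd1 by 0.42 and 0.58 (SE 0.13). Of 15 translation factors 8 rose in wild type and 11 in knockout and 0 fell, with medians of 0.44 and 0.63. The elongation factor Gfm1 rose by 1.12 and 1.39 (SE 0.11), the initiation factor Mtif2 by 0.47 and 0.63 (SE 0.08), the release factor family member Mtrf1 by 0.66 and 1.05 (SE 0.16), and Lrpprc, which stabilizes mitochondrial messages, by 0.74 and 0.87 (SE 0.10).

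Of 25 assembly and RNA modification factors 8 rose and 2 fell in wild type, and 10 rose and 1 fell in knockout, with medians of 0.21 and 0.26 (without WT_CD3CD28 replicate 4, 12 rose and 1 fell in wild type). With all arrays 40% passed in wild type and 44% in knockout, against 29% and 38% of all tested genes. Without that array the share of all genes is not given here. The GTPases Gtpbp10 and Noa1 rose by 1.41 and 0.81 in wild type and by 1.82 and 1.02 in knockout. The RNA-binding protein Fastkd2 rose by 1.08 and 1.32, and the ribosomal RNA methyltransferase Tfb1m by 1.02 and 1.20. Mettl17 fell by 0.37 and 0.55 and the methyltransferase Nsun4 by 0.40 in wild type, named after their values were seen. Of 10 genes of mitochondrial transcription and DNA replication 6 rose and 1 fell in wild type and 7 rose and 1 fell in knockout. These were 70% and 80% of that list, against 29% and 38% of all tested genes. The nuclease Mgme1 rose by 0.86 and 0.85, the elongation factor Tefm by 0.88 and 1.33, the helicase Twnk by 0.48 and 0.38, and Top1mt, a topoisomerase, by 0.67 and 0.81.

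The proteins of the cytosolic ribosome are a contrast of function. Of 61 tested genes, taken by their symbols, 4 rose and 0 fell in each genotype, with medians of -0.06 and 0.02. That was 6.56% in each genotype, against 29% of all tested genes in wild type and 38% in knockout. The mean log2 signal of the 61 genes lay between 11.4 and 11.7 on all arrays. The genes that rose were Rpl12, Rpl7l1 and Rps27l in both, Rpl30 in wild type and Rpl14 in knockout. Rpl7l1 and Rps27l are in the list by their symbols, as relatives of Rpl7 and Rps27. Nuclear subunits of the respiratory chain and ATP synthase, whose partners the mitochondrial ribosome makes, had 19 of 79 that rose and 2 that fell in wild type and 48 and 1 in knockout. The share that passed was 26.6% in wild type, where 29% of all tested genes passed, and 62% in knockout, against 38%. The medians of these subunits were 0.14 and 0.43, and -0.17 between genotypes under anti-CD3. Their mean on WT_CD3CD28 replicate 4 was 10.10, below all 4 WT_CD3 arrays (10.16 to 10.30), and without it the wild-type median was 0.23, with 24 that rose and 2 that fell. Ndufa9, of complex I, rose by 0.33 and 0.70 (SE 0.09), and Sdhb, of complex II, by 0.30 and 0.69 (SE 0.10). The interaction of these subunits was above 0 in 77 of 79 genes with a median of 0.28, and 0 of 79 passed in limma (15 at an unadjusted p under 0.05, 0 past the adjusted threshold with the block). Of all tested genes 50.3% were above 0, and 3.22% were higher at that unadjusted p. Without WT_CD3CD28 replicate 4 the interaction median was 0.19, and 8 had an unadjusted p under 0.05. The shares of all genes without that array are not given here.

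Some markers of other cells moved with the stimulus. Of 5 tested B cell markers 3 fell in wild type and 4 in knockout, and of 8 myeloid and dendritic markers 3 and 5 fell, with 0 rising in either list. Of all tested genes 16% were higher and 13% lower in wild type, and 20.4% and 17.6% in knockout, and these marker lists are short. The mean of the B cell markers was 6.42 to 6.60 in WT_CD3, 5.85 to 6.14 in WT_CD3CD28, 6.24 to 6.80 in KO_CD3 and 5.83 to 6.13 in KO_CD3CD28. For the myeloid markers it was 6.22 to 6.44, 5.80 to 6.01, 6.20 to 6.70 and 5.82 to 6.06. Of the T cell markers 4 of 6 fell and Thy1 rose in wild type, and 3 fell and Thy1 rose in knockout. Of 6 CD8 and NK cell markers 3 were bright enough to test and rose in both genotypes, with means of 7.48 to 7.73, 8.19 to 8.40, 7.45 to 7.58 and 8.26 to 8.40. Cd8a was at 6.85 ± 0.08 in WT_CD3 and 7.58 ± 0.07 in WT_CD3CD28 (SD, n = 4). Of 2 tested erythroid and platelet markers 0 changed in wild type (limma, and 0 at an unadjusted p under 0.05) and Itga2b fell in knockout by 0.29. In the genotype comparison under anti-CD3, 0 of these markers passed in limma. At an unadjusted p under 0.05, 2 T cell markers were lower and 1 myeloid marker was higher. Of the CD8 or NK markers 1 was higher and 1 lower, and it was 0 B cell and 0 erythroid markers. Of all 16427 tested genes, 2133 were higher and 1854 lower by that rule. With the replicate block, which gave 16 member calls there, 1 myeloid and 1 CD8 or NK marker passed too, against 11.9% of all genes. They were Cd14 (0.47, adjusted p = 0.0286 in limma) and Cd8a (0.27, 0.0496). Both were higher in knockout cells and were named after their values were seen. Of the 8 myeloid markers 7 were above 0 and 1 below, and of the 3 CD8 or NK markers 1 was above and 2 below. The part of these shifts in the members' differences was not tested.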

How the data were processed

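The deposited values are log2 signals per probe, made with RMA (background correction, quantile normalization and probe set summary) per the submitters' processing notes. The sources used here do not give the genome build of the array design. Of 35556 probes, 21789 carry a single gene symbol in the platform's probe table and 1621 several. Probes had to exceed the 25th percentile of the array on 4 or more of the 16 arrays, and the brightest kept probe stood for each of 16427 genes.

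A mean per group was fitted with limma 3.58.1 (R 4.3.3; 12 residual and 4.92 prior degrees of freedom), with Benjamini-Hochberg adjustment over all genes and a threshold of 0.05, for 5 comparisons. The fit was also run on simulated data with independent noise on each array. That simulation left out deviations shared by arrays of the same number, so it does not test their effect. Motif searches used Python 3.11.15 with pandas 2.3.3 and numpy 2.4.6, and figures matplotlib 3.10.9.

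Arrays of the same replicate number deviated together: correlations of deviations from the group means were 0.157 to 0.369 (CD28 in wild type), 0.217 to 0.515 (CD28 in knockout), 0.181 to 0.453 (genotype under anti-CD3) and 0.201 to 0.586 (genotype under both). The labels name no batch and no pairing, so the pairing by number was inferred from these same data. It was fitted as a block (9 residual degrees of freedom) only as an alternative. Between genotypes, arrays numbered 1, 2 or 4 differed in their Xist level, so like numbers there were not matched by sex.

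The members, the gene lists and the alternatives were chosen with earlier results of these data known. Named members are, per CD28 comparison, the 8 risers with the smallest p and up to 6 fallers, all called members between genotypes (8 if over 10), those never called, and a panel of 14; each list gave up to 4 genes by p. Kinase genes, pseudogenes and some other genes whose symbols begin like those of cytosolic ribosomal proteins were left out of that list after its values were seen. Rpl7l1 and Rps27l stayed in it. Other array scalings, no filter, all probes, a trended variance, the block, leaving out single arrays, 2 replicate numbers at a time and the Xist level were tried as alternatives.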

Additional observations from a re-analysis of the deposited data

Results flagged for a closer look

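In each group of 4 arrays, each of the 31 named members and the mean of the 77 genes were checked for an array far from the others, 128 checks with 8 found. Chance gives about 1 in 20 checks. Of the 8, 4 involved WT_CD3CD28 replicate 4, which was low for Mrpl28 (8.04, the others 8.89 to 8.95), Mrpl58 (8.76, the others 9.22 to 9.27), Mrps23 (9.31, the others 10.1 to 10.2) and Mrps34 (8.16, the others 8.76 to 8.83). In WT_CD3, replicate 4 was low for Mrpl19 (8.45, the others 8.68 to 8.73) and replicate 3 high for Mrps18c (10.14, the others 9.82 to 9.84). In KO_CD3, replicate 1 was low for Mrps16 (8.80, the others 9.07 to 9.10) and replicate 2 for Mrps34 (7.88, the others 8.13 to 8.18).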

How the results depend on the processing

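The direction of the members' median was kept under all alternatives for the CD28 difference in both genotypes, for the genotype under anti-CD3 and for the interaction. Under both stimuli the genotype median, 0.03, took either sign. The count for CD28 in wild type (40) was 65 with replicates 1 and 2 alone and 16 with replicates 3 and 4 alone, and 29 to 56 without single arrays. In knockout (69) it was 30 with replicates 3 and 4 alone and 59 to 71 without single arrays. The knockout median (0.66) was 0.46 after quantile normalization again, 0.87 with replicates 1 and 2, 0.47 with replicates 3 and 4, and 0.59 to 0.72 without single arrays. The genotype count under anti-CD3 (2) was 16 with the replicate block, 30 with replicates 1 and 2 and 0 with replicates 3 and 4. It was 0 with the Xist level as a covariate, 4 with arrays centred on the median of all probes, and 0 to 8 without single arrays. With that centring 13 of all 16427 tested genes were higher and 248 lower. Without single arrays the other medians ran from 0.32 to 0.49 (CD28 in wild type), -0.33 to -0.22 (genotype under anti-CD3), -0.08 to 0.10 (genotype under both) and 0.20 to 0.36 (interaction), and the counts for the genotype under both stimuli and for the interaction were 0. The cause of these changes was not tested, beyond the fewer arrays in some of them. For the counts with fewer arrays or with the Xist level, the shares of all genes that passed are not given.

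Beyond that, the replicate block changed the calls of named members as given beside them and also added Mrpl9, Mrpl14, Mrpl28 and Mrpl33 for CD28 in knockout; no other named member's call changed under the block. Reading the other gene lists without WT_CD3CD28 replicate 4 and centring on the median of all probes were chosen after seeing the data. The centring moved the median of all genes in the knockout comparison from -0.06 to 0.07, and the share of higher among all calls from 55.1% to 69.3% (wild type), 53.8% to 75% (knockout) and 27.2% to 4.98% (genotype under anti-CD3). The number of arrays and the bulk RNA limit what can be told.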
